A study of Mus musculus with 36 samples.

Results

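The 9 genes Tafa4, Nxph1, Opcml, Fgl2, Rgs4, Ddah1, Sh3gl2, Frmpd4 and Khdrbs2 were followed through 36 mouse RNA-seq libraries. They were 9 of 30125 genes listed in the normalized-count tables, and all 9 were present in each of the 3 tables. They were chosen by their normalized counts, being higher where β-catenin had been removed in low CHIR or where CHIR was absent, so those differences are described without a test. The rule of choice did not use their behaviour in high CHIR or after removal of the Tcf/Lef factors, which was tested. The genes were listed with earlier results of these data known, so these tests may not be independent of the choice.

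The libraries came from primary nephron progenitor cells (NPCs), the Six2+ mesenchyme of the embryonic mouse kidney, which were freed from the tissue with enzymes, enriched by removing other cells on magnetic beads, and kept in the culture medium NPEM. CHIR is a GSK3β inhibitor that stabilizes β-catenin. Wild-type NPCs were cultured with 0 µM (no), 1.25 µM (low) or 5 µM (high) CHIR, with 3 libraries at each dose. In a second experiment, Ctnnb1, the gene of β-catenin, was removed either with Cre mRNA from NPCs carrying B-catenin_c_c conditional alleles, with the same NPCs without Cre as controls, or with Ctnnb1 sgRNAs from NPCs of the Cas9-eGFP genotype, with a GFP sgRNA as control, and the cells were then held in low or high CHIR (8 groups, 2 libraries in each). In the third, NPCs making Cas9 received sgRNAs to Tcf7, Tcf7l1, Tcf7l2 and Lef1 together (the quadruple knockout, QKO) or the GFP sgRNA, in low CHIR (2 QKO and 3 control libraries) or high CHIR (3 and 3). The paper reports a weaker loss of Tcf7 protein than of the others with single guides. In its QKO, cells with the induction marker Jag1 were reduced but not lost. Each guide was used at a lower amount in the QKO than singly, and the knockout period was longer than for β-catenin. Transfected cells of the knockout experiments were collected by a co-delivered mCherry reporter, so each library is a bulk sample of transfected cells in which unedited cells may remain. The Cre and Cas9 cells came from different mouse lines, and the stocks used were Swiss Webster or C57Bl/6, so method and line cannot be told apart.

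In canonical Wnt signaling, GSK3β marks β-catenin for destruction until the signal, or an inhibitor such as CHIR, blocks the kinase. Stable β-catenin then enters the nucleus and joins the DNA-bound factors Tcf7, Tcf7l1, Tcf7l2 and Lef1, and it also links cadherins to the cytoskeleton. In NPCs a weak input accompanies self-renewal and a strong input induces nephron differentiation. The 9 genes are better known outside the kidney. Tafa4 is a small secreted chemokine-like protein. Nxph1 is a neurexophilin, a secreted ligand of α-neurexins, and Opcml is a GPI-anchored adhesion molecule of the IgLON family. Fgl2 is a fibrinogen-like protein that occurs as a membrane prothrombinase and in a secreted form. Rgs4 accelerates GTP hydrolysis by Gα subunits, and Ddah1 breaks down asymmetric dimethylarginine, an inhibitor of nitric oxide synthases. Sh3gl2 (endophilin A1) bends membranes during endocytosis, Frmpd4 is a PDZ and FERM domain scaffold that binds PSD-95, and Khdrbs2 is an RNA-binding splicing regulator.

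The sequences below are the guides by which β-catenin was removed in the Cas9 arm, and the promoters of 3 of the genes. The 4 Ctnnb1 guides, all of 20 bases and shown 5′ to 3′, lay in coding exons on chromosome 9 (GRCm38), antisense to the transcript. By the exon numbers of GENCODE transcript annotation vM21, the sgRNA5 site was in exon 3, the sgRNA1 and sgRNA3 sites in exon 4 and the sgRNA6 site in exon 6. The study's own guide names differ in part, giving exon 2 for sgRNA1, exon 3 for sgRNA3 and sgRNA5, and exon 6 for sgRNA6.
Ctnnb1 sgRNA5, chr9:120950729-120950748: agctacttgctcttgcgtga
Ctnnb1 sgRNA1, chr9:120950987-120951006: atgagcagcgtcaaactgcg
Ctnnb1 sgRNA3, chr9:120951011-120951030: agccaagcgctggacattag
Ctnnb1 sgRNA6, chr9:120951618-120951637: gagattatgcagtgtcgtga

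Promoter windows of 300 bases (250 before and 50 after the annotated start; RefSeq, GRCm38.p6) were found for all 9 genes, 11 windows in all because Frmpd4 has 3. The letters CTTTGAA or CTTTGAT, and likewise CTTTGTA or CTTTGTT, which Tcf/Lef factors are known to bind, occurred on neither strand of any of the 11 windows, and 16.9% of all 32851 promoters of that length held at least 1 of them. Absence from these windows says only that the letters are not there. The windows of Tafa4, Rgs4 and Ddah1 are shown because Tafa4 had the largest fitted rises after β-catenin removal in high CHIR, and because Rgs4 and Ddah1 had the largest fitted rises among the 9 in the QKO. Capitals mark the letters CCAAT (in 37.4% of all promoters) or TATAAA (in 13.6%), on either strand. No marked stretches overlap. Tafa4 held 1 CCAAT, Rgs4 held 1 CCAAT and, 31 bases before its start, TATAAA, and Ddah1 held neither.
Tafa4 promoter, chr6:97060362-97060661, minus strand: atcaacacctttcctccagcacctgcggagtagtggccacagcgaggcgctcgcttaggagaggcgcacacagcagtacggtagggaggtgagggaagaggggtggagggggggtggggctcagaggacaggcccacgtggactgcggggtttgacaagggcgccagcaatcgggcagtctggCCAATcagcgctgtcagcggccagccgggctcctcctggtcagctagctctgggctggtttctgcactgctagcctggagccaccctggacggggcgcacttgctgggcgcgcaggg
Rgs4 promoter, chr1:169747593-169747892, minus strand: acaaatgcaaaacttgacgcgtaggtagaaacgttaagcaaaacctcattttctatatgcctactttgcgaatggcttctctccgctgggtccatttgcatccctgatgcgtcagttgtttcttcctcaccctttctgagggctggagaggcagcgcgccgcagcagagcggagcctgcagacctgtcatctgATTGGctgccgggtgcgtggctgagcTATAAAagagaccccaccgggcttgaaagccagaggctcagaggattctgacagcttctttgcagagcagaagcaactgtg
Ddah1 promoter, chr3:145758442-145758741, plus strand: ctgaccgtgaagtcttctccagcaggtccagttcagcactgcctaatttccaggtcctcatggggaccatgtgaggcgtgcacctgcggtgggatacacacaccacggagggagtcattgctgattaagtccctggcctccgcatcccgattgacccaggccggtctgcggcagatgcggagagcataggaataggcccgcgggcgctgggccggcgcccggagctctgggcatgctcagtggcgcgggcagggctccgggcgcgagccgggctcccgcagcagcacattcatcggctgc

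Values are normalized counts: reads on a gene divided by the authors' size factor of the library, comparable between the libraries of a table. Reads on genes ran from 13651129 to 76071568 in the wild-type libraries, from 14537850 to 27838106 in the β-catenin libraries and from 13089780 to 20152719 in the QKO libraries. All 8 NPC markers listed (Six2, Cited1, Eya1, Sall1, Wt1, Pax2, Hoxd11 and Itga8) were detected in every library, but their level moved with the dose. In wild-type NPCs their sum was 26187 to 29753 without CHIR, 18194 to 23330 in low and 5136 to 10275 in high CHIR, without overlap. The part of this shift in the dose changes of the 9 genes was not tested. Summed stromal markers, 9 of 9 detected and led by Col1a1, Col3a1 and Tcf21, reached 37094. In wild-type libraries those 3 reached 18643, 6656 and 8634. The others there reached 1862 (Meis1), 987 (Pdgfrb), 445 (Dcn), 282 (Lum), 275 (Pdgfra) and 46.0 (Foxd1). The paper reports that most cells in its cultures expressed an NPC-linked reporter. The summed neuronal markers stayed between 67.4 and 571. Of the neural crest and Schwann markers, Sox10, Foxd3 and Cdh19 were at 0 or not listed in every wild-type and β-catenin library. Ctnnb1 itself was lower in the Ctnnb1 sgRNA libraries (1652 and 1039.6 in low CHIR, 1629.9 and 1270.1 in high) than in their controls (2521 and 3397, 2632 and 2701). With Cre in high CHIR it was 2254 and 2583 against 2423 and 2207 without, and in low CHIR 3085 and 2451 against 3880.1 and 3097. A count over the whole gene reads exons outside the deleted part too, so it does not check the Cre deletion. In the QKO in high CHIR, Tcf7 was 109.5, 179.7 and 127 against 534, 535 and 268 and Lef1 255, 441 and 513 against 1504, 2743 and 1144, while Tcf7l1 and Tcf7l2 overlapped their controls. RNA level does not report how many alleles an sgRNA disrupted.

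In wild-type NPCs all 9 genes were higher without CHIR than in low CHIR, in every library, which is part of how they were chosen (15.9% of all genes tested were separated in this way). Tafa4 read 1065, 858 and 992 normalized counts without CHIR, 15.8, 13.3 and 91.0 in low CHIR and 1.12, 0 and 0.935 in high CHIR, so no library of one dose reached into the next. Fgl2 read 318, 395 and 597, then 1.31, 29.4 and 44.3, then 14.6, 0 and 3.74, with low and high CHIR overlapping. For Nxph1 the values were 615, 523 and 1569, then 34.2, 66.5 and 184, then 5.60, 0 and 0. These 3 encode secreted proteins or a protein with a secreted form, and each was at 14.6 or less in every high CHIR library. Ddah1 kept a high count at each dose, from 1259, 947 and 1272 without CHIR through 824, 628 and 756 to 428, 218 and 305 in high CHIR, with the 3 doses not overlapping. Khdrbs2 (218 ± 54.9, 34.7 ± 3.42 and 8.67 ± 6.56; mean ± SD, n = 3), Opcml (237 ± 149, 42.4 ± 21.7 and 5.78 ± 5.01) and Rgs4 (162 ± 29.6, 38.5 ± 18.3 and 7.29 ± 6.79) were also lower at each higher dose without overlap.

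From low to high CHIR, 6 of the 9 were lower in every library (16% of all genes tested), Fgl2 and Frmpd4 overlapped, and Sh3gl2 was higher (14.8% of all genes tested). Sh3gl2 was 96.4, 41.0 and 80.4 without CHIR and 6.57, 21.8 and 13.2 in low CHIR, but 65.0, 139.6 and 395 in high CHIR, so every high CHIR library stood above every low CHIR library and the lowest level was at the middle dose. Frmpd4 went from 40.8, 43.9 and 87.1 to 6.57, 4.75 and 9.58 and then 20.2, 8.38 and 23.4, where high and low CHIR overlapped. Per kilobase of exon, Ddah1 was the most abundant of the 9 without CHIR (291 normalized counts per kb), followed by Nxph1 (189.9) and Tafa4 (171), and Frmpd4 the least (6.10). Markers of other kidney cells moved between these same libraries. From low to high CHIR the summed endothelial markers (7 of 7 in the table, Tie1 at 0 in high CHIR) went from 26.6 to 49.9 to 652 to 1418, the ureteric markers (7 of 8, Wnt9b absent) from 414 to 897 to 1137 to 7091 and the nephron epithelial markers (6 of 8, Slc12a1 and Umod at 0 or absent) from 229 to 464 to 684 to 1731, while the stromal markers (9 of 9) went from 19730.1 to 24978 to 4313 to 12083. None of these 4 ranges overlapped, and their part in the dose changes, that of Sh3gl2 included, was not tested. Between no and low CHIR the same 4 sums overlapped. In bulk RNA, fewer cells expressing a gene and less RNA per cell cannot be told apart, and this holds for every level given here.

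**Figure D1:**
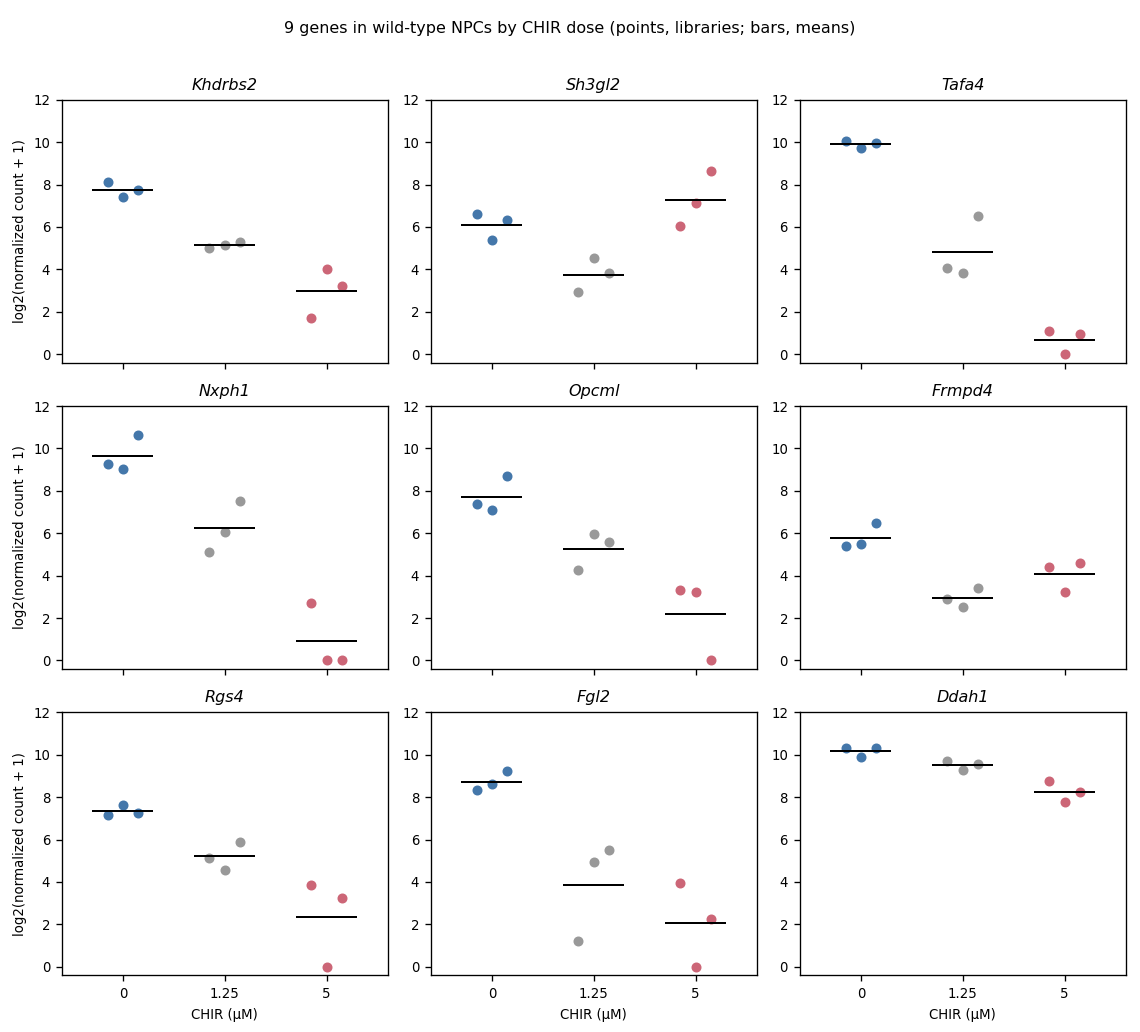
Level of each gene in wild-type NPCs against CHIR dose in µM (x axis); the y axis is log2(normalized count + 1), points are libraries (3 at each dose) and bars their means. Tafa4, Nxph1, Opcml, Rgs4, Khdrbs2 and Ddah1 are lower at each higher dose, whereas Sh3gl2 is lowest at 1.25 µM and highest at 5 µM.

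Where β-catenin had been removed in low CHIR, all 9 genes were higher in every library than in the matched controls, with either method, which again is how they were chosen (16.1% of all genes tested with Cre and 16.1% with Cas9 were separated in this way). The mean was between 2.40-fold (Ddah1) and 33.4-fold (Opcml) higher with Cre among the 8 genes that had reads in the control, and between 2.28-fold (Ddah1) and 7.56-fold (Sh3gl2) higher with Cas9. Tafa4 read 733 and 539 with Cre against 65.5 and 69.6 without, and 584 and 367 with Ctnnb1 sgRNAs against 58.6 and 101 with the GFP sgRNA. Rgs4 read 708 and 518 against 242 and 224 with Cre and 258 and 461 against 64.6 and 231 with Cas9. Ddah1 read 2172 and 1822 against 1053 and 614 with Cre and 2249 and 2148 against 885 and 1042 with Cas9. The mean of the removed cells with Cas9 over that with Cre was 0.748 for Tafa4, 0.587 for Rgs4 and 1.1 for Ddah1, between 0.481 (Fgl2) and 1.26 (Opcml) for 8 of the 9, and 11.4 for Nxph1. Khdrbs2 read 1076 and 856 with Cre against 70.0 and 59.5 without, and 565 and 693 with Ctnnb1 sgRNAs against 58.6 and 132 with the GFP sgRNA, with Cre the higher of the removed levels. Nxph1 had no read in any of the 4 libraries of B-catenin_c_c NPCs without Cre, at either CHIR dose, and 98.3 and 64.4 normalized counts with Cre in low CHIR, which was at least 26.8-fold higher against a floor of 3 reads per library. In the GFP sgRNA controls of the Cas9 line the same gene was already at 197 and 373 in low CHIR. Opcml differed between the 2 lines in the same direction, at 13.3 and 13.7 in the controls without Cre and 260.3 and 75.8 in the GFP sgRNA controls. The intact controls of the 2 lines thus set different baselines for these 2 genes.

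In high CHIR most controls were lower still, and removal of β-catenin there raised all 9 genes with Cre and 8 of 9 with Cas9. Of the controls, 7 of 9 genes were lower in high than in low CHIR in every library without Cre (24.9% of all genes tested) and 7 of 9 with the GFP sgRNA (28.5%), a description that rests on low CHIR libraries used in the choice. With Cre, 9 of 9 were called higher (limma, adjusted p under 0.05 and a log2 difference of at least 0.5), where 5.9% of all 16780 genes tested were. With Ctnnb1 sgRNAs 8 of 9 were, where 3.44% of all genes tested were. For every gene and with both methods, each library without β-catenin was above each control. That held for 24.2% of all genes tested with Cre and 30.1% with Cas9. All 9 passed the filter on low values in this table, a mean of at least 10. In the high CHIR controls Tafa4, Nxph1, Fgl2, Frmpd4 and Rgs4 averaged 0 to 5.87 with both methods. These genes passed only through libraries without β-catenin or in low CHIR, which favours a rise. The spread in these tests came from all libraries of the table, those in low CHIR included. The median fitted log2 difference of the 9 was 5.34 with Cre (4.67 with Nxph1 set to its bound) and 4.18 with Cas9 (4.18 with Tafa4 set to its bound), and the medians over all genes tested were -0.02 and 0.00.

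Among the secreted and surface proteins, Tafa4 had almost no reads in intact cells in high CHIR and many once β-catenin was removed. It read 0 and 1.04 without Cre and 744 and 611 with Cre. The control value is a single read, the ratio of pooled reads was 1402 (95% exact counting interval, which covers counting error only, 251 to 55401), and the fitted difference was 8.89 ± 0.40 (SE; limma adjusted p = 4.82e-08). With Cas9 it read 0 and 0 in the controls and 805 and 696 with Ctnnb1 sgRNAs, at least 293-fold higher against the floor of 3 reads per library (limma adjusted p = 3.76e-08). The lowest of the 4 libraries without β-catenin in high CHIR was at 611. Nxph1 rose from 3.0 and 1.91 to 215 and 525 with Cas9 (log2 difference 6.63 ± 0.55, limma adjusted p = 1.1e-05; 7.27 without Ctnnb1 sgRNA replicate 1 and 5.99 without replicate 2). With Cre it went from 0 and 0 to 27.3 and 57.1, at least 14.4-fold (limma adjusted p = 3.62e-05). Fgl2 read 0 and 3.11 without Cre and 309 and 297 with it. These are 3 reads against 551, a ratio of 208 (counting interval 70.7 to 1009.7), with a fitted difference of 7.23 ± 0.65 (limma adjusted p = 1.31e-05; 6.21 without control replicate 1 and 8.25 without control replicate 2). With Cas9 the rise was from 3.75 and 2.87 to 76.4 and 76.6 (23.1-fold, limma adjusted p = 0.00214).

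Opcml was the gene that did not pass with Cas9. With Cre it read 250.4 and 147 against 8.28 and 5.19 (29.5-fold, log2 difference 4.67 ± 0.65, limma adjusted p = 0.000462). With Cas9 it read 259 and 217 against 162 and 31.6, a log2 difference of 1.71 ± 0.65 (95% interval 0.31 to 3.11, limma adjusted p = 0.161). The control libraries spanned a wide range and the first of them was close to the edited cells, and without that library the difference was 2.87 (limma adjusted p = 0.0242).

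Rgs4 and Ddah1, a regulator of G-protein signaling and an enzyme, both rose with either method. Rgs4 read 4.60 and 3.11 without Cre in high CHIR and 1401 and 1021 with it (314-fold, log2 difference 7.96 ± 0.48, limma adjusted p = 3.77e-07). In the Cas9 line it read 5.99 and 5.74 and 704 and 1109.9 (154-fold, log2 difference 7.01 ± 0.48, limma adjusted p = 3.14e-06). Ddah1, with many reads in every control at 117 and 137 and 224 and 275, reached 1964 and 2312 with Cre and 2118 and 2242 with Cas9. Its log2 differences, 4.06 ± 0.23 and 3.13 ± 0.23, had the smallest standard errors of the 9 (limma adjusted p = 2.48e-07 and 4.52e-06).

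Of the other 3, the RNA-binding Khdrbs2 rose 25.1-fold with Cre (303 and 236 against 11.0 and 10.4, limma adjusted p = 2.31e-05) and 11.8-fold with Cas9 (111 and 220.1 against 8.99 and 19.1, limma adjusted p = 0.00039). Frmpd4 was at 1.84 and 2.07 without Cre and 157 and 126 with it (log2 difference 5.58 ± 0.46, limma adjusted p = 6.39e-06). With Cas9 it was 0.749 and 0.957 in the controls, 2 reads in all, and 46.0 and 73.9 in the edited cells, so the ratio of 71.7 has a counting interval of 19.5 to 598 (limma adjusted p = 3.25e-05). Sh3gl2, which was higher in high than in low CHIR in wild-type NPCs, was low in the high CHIR controls here, at 9.21 and 16.6 and 12.0 and 23.9, and rose to 189 and 154 with Cre (limma adjusted p = 0.000152) and 119 and 66 with Cas9 (log2 difference 2.32 ± 0.45, limma adjusted p = 0.00905). The Cas9 call of Sh3gl2 was lost without Ctnnb1 sgRNA replicate 1 (difference 1.90, limma adjusted p = 0.0975) and without GFP sgRNA replicate 1 (1.85, adjusted p = 0.0974).

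Beside these differences, the summed stromal markers were 8802 to 14029 with Cre and 6686 to 7848 without in high CHIR, and 14863 to 22829.9 with Ctnnb1 sgRNAs and 7207 to 18412 with the GFP sgRNA, all 9 markers being detected in each group. None of the 9 stromal markers passed the test in either comparison. The stromal sums were higher with Cre without overlap and overlapped with Cas9, and the part of these cells in the result was not tested. With Cas9 the summed nephron epithelial markers (7 of 8 in the table, Umod at 0 or absent) were lower without overlap (104 to 112 against 174 to 197), and with Cre they overlapped. The summed neuronal markers overlapped between removed and control libraries with both methods (133 to 265 and 91.1 to 146 with Cre, 107 to 223 and 86.1 to 189 with Cas9), though 1 of the 4 neuronal markers tested, Snap25 (named after its value was seen), was higher with Cre (log2 difference 3.36 ± 0.80, limma adjusted p = 0.0182).

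**Figure D2:**
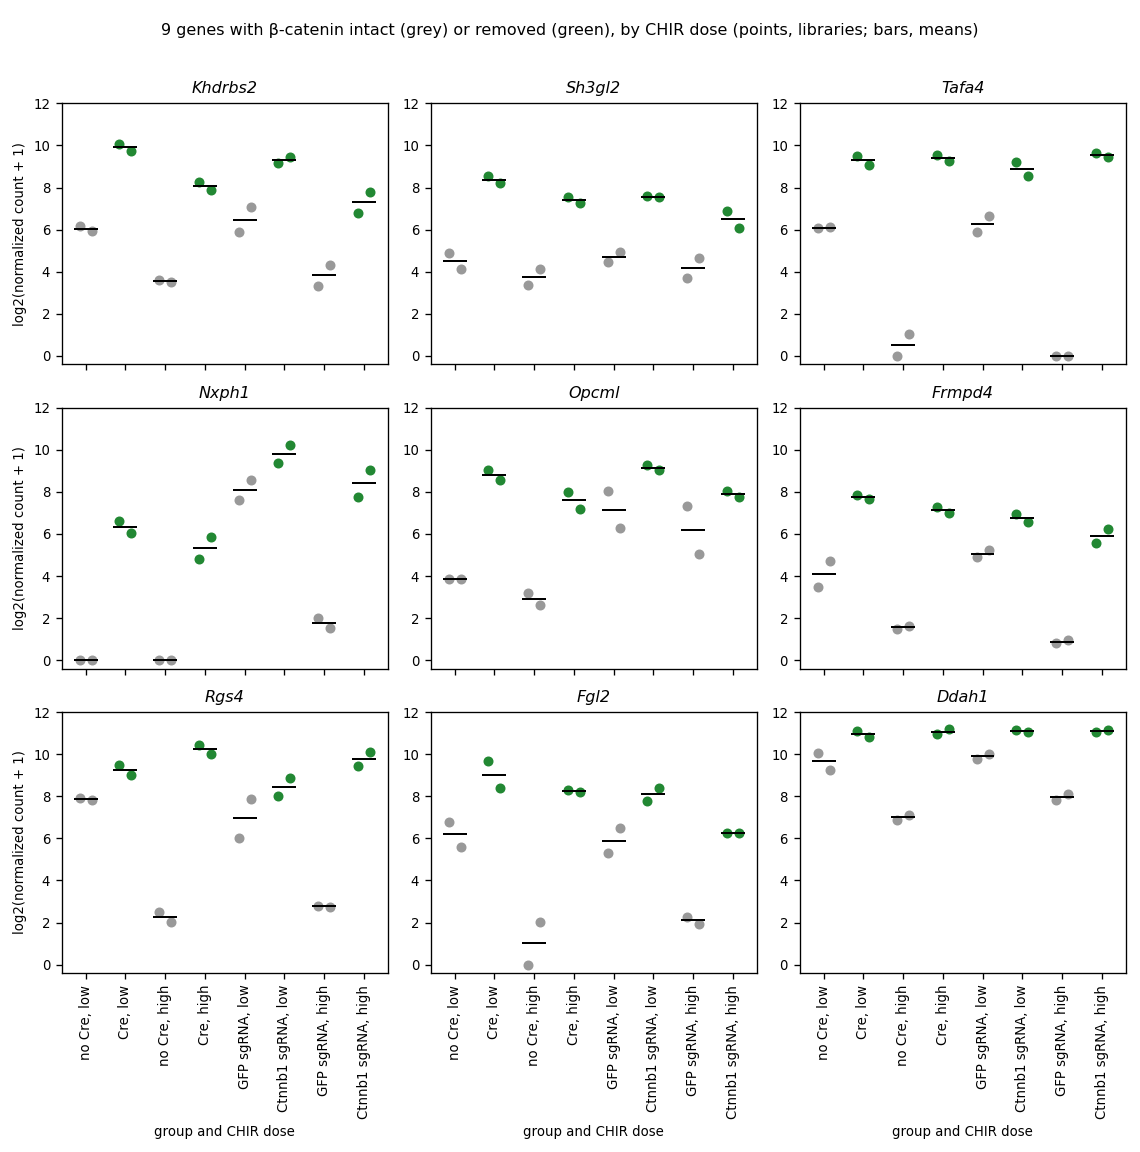
Level of each gene in the 8 groups of the β-catenin experiment, given on the x axis with their CHIR dose (low, 1.25 µM; high, 5 µM); the y axis is log2(normalized count + 1), points are libraries (2 in each group), bars are means, grey is intact and green is removed β-catenin. Each green pair lies above the grey pair of its own dose and method; in the Cas9 line at high CHIR the first Opcml control comes close to the edited cells.

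With β-catenin removed, 6 of the 9 genes were lower in high than in low CHIR in every library with Cre (13.5% of all genes tested) and 6 with Cas9 (21.9%), and 1 with Cre (14.5%) and 2 with Cas9 (22.5%) were higher. These comparisons use the low CHIR libraries by which the genes were chosen and carry no test. Rgs4 was higher in high than in low CHIR without β-catenin, by 1.98 times with Cre (1401 and 1021 against 708 and 518) and 2.52 times with Cas9 (704 and 1109.9 against 258 and 461), and the libraries did not overlap. Ddah1 overlapped between the doses (ratios of 1.07 and 0.991). Tafa4 gave ratios of 1.07, with overlap, and 1.58, without. The other 6 genes, Khdrbs2, Sh3gl2, Nxph1, Opcml, Frmpd4 and Fgl2, were lower in high than in low CHIR in every library with both methods. Khdrbs2 was at 0.279 of its low CHIR level with Cre and 0.263 with Cas9, and Frmpd4 at 0.654 and 0.55. Set against intact cells in low CHIR, cells without β-catenin in high CHIR were higher for all 9 genes with Cre (15.8% of all genes tested) and for 5 with Cas9 (22.7%) without overlap between libraries, the other 4 (Khdrbs2, Nxph1, Opcml and Fgl2) overlapping.

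The 8 groups of the β-catenin table were ordered by mean for each gene, as a description. For Tafa4 and Ddah1 the 4 groups without β-catenin came first, neighbours overlapping (751 to 476 for Tafa4, 2199 to 1997 for Ddah1), then the intact cells in low CHIR (79.6 and 67.6 for Tafa4, 964 and 834 for Ddah1), and last, apart from them, the intact cells in high CHIR. Rgs4 had the same blocks, with the removed cells in high CHIR (1211 and 907) ahead of those in low CHIR (613 and 359). For Khdrbs2, Sh3gl2 and Frmpd4 the removed cells also held the first 4 places, but with low CHIR ahead of high CHIR within each method, and for Khdrbs2 the last of them overlapped the GFP sgRNA cells in low CHIR (166 against 95.3). For Nxph1, Opcml and Fgl2 the blocks were mixed: intact Cas9 line cells in low CHIR stood above Cre cells without β-catenin for Nxph1 (285 against 81.3), overlapped the removed cells in high CHIR for Opcml (168 against 199), and intact cells in low CHIR overlapped Cas9-edited cells in high CHIR for Fgl2 (78.3 against 76.5).

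The effect of removal in high CHIR was compared directly between Cre and Cas9. None of the 9 genes passed (limma), where 0% of all genes tested were called. Under an unadjusted p of 0.05 there were 3, and the share of all genes at that level was not counted. The differences of effect for these 3, all larger with Cre, were 3.05 ± 0.92 for Fgl2 (95% interval 1.07 to 5.04), 2.96 ± 0.92 for Opcml (0.98 to 4.94) and 0.93 ± 0.32 for Ddah1 (0.24 to 1.63). The intervals of the other 6 genes all include 0, and they do not show that the methods act alike.

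The change from low to high CHIR was tested in libraries whose values the rule of choice did not use, the GFP sgRNA controls of the QKO experiment. Of the 9 genes, 8 passed the filter on low values in that table, and 5 of the 8 were called lower in high CHIR, where 7.96% of all 15878 genes tested were, and none was called higher (6.98% of all). Of those 5, Tafa4, Nxph1 and Fgl2 passed the filter only through low CHIR libraries, which favours a fall. Their means in high CHIR were 1.65, 1.70 and 2.68 in the controls and 2.21, 2.93 and 1.89 in the QKO. Ddah1 fell from 593, 677 and 638 in low to 174, 92.0 and 155 in high CHIR (log2 difference -2.22 ± 0.25, limma adjusted p = 0.00011). Fgl2 fell from 48.9, 111 and 120.2 to 4.94, 2.02 and 1.06 (-4.72 ± 0.70, limma adjusted p = 0.00081). Tafa4 fell from 31.8, 48.4 and 41.5 to 4.94, 0 and 0 (-4.50 ± 0.69, limma adjusted p = 0.000999; -5.36 without high CHIR replicate 1). These 3 were separated between the doses in every library, as were 7 of all 9 genes below (15.1% of all genes tested) and Sh3gl2 above (14.1%). Nxph1 fell from 31.8, 17.8 and 77.8 to 0, 4.05 and 1.06 (-4.06 ± 0.73, limma adjusted p = 0.00259; -4.67 without high CHIR replicate 2). Rgs4 fell from 196, 253 and 252 to 31.3, 16.2 and 0 (-4.82 ± 0.94, limma adjusted p = 0.00453; -5.81 without high CHIR replicate 1 and -3.30 without replicate 3). In each of these 2 genes, 1 high CHIR library was at 0 reads, and all of them stayed well below the lowest low CHIR library.

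Khdrbs2 was lower in every high CHIR library (9.89, 9.10 and 14.9 against 24.5, 31.6 and 36.3), a difference of -1.38 ± 0.44 that narrowly missed the threshold (limma adjusted p = 0.0524) and passed it with the replicate number as a block (limma adjusted p = 0.014, with which 11.6% of all genes were called lower). Opcml overlapped between the doses (-0.74 ± 0.83, limma adjusted p = 0.62). Sh3gl2 gave a difference of opposite sign, 0.76 ± 0.38 (limma adjusted p = 0.22), with 19.8, 16.2 and 31.9 in high and 15.9, 9.87 and 12.1 in low CHIR. Frmpd4, below the filter, read 8.56, 16.8 and 13.8 in low and 2.47, 2.02 and 1.06 in high CHIR, and in the fit without a filter its difference was -2.29 ± 0.46 (limma adjusted p = 0.00501). In these controls the summed endothelial markers were higher in high CHIR (33.7 to 50.1 in low, 145 to 239.7 in high; 2 of 3 tested passed) and so were the summed ureteric markers (223 to 464 and 479.5 to 1049.7; 2 of 4) and the nephron epithelial markers (91.6 to 155 and 283 to 496; 1 of 5), while stromal markers went from 5867 to 11994 to 1847 to 4819 (2 of 8 lower). The part of such cells in the differences was not tested.

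The sgRNAs to the 4 Tcf/Lef factors in low CHIR moved none of the 8 genes tested past the threshold with limma. edgeR, DESeq2 and the fit with the replicate block also called 0. In low CHIR all 9 genes were higher without β-catenin, but the 2 knockouts differ in time, and Tcf/Lef protein may remain in the QKO. Only 0.0063% of all genes tested were called higher and 0% lower, so the comparison of 2 with 3 libraries called almost nothing. At an unadjusted p under 0.05 there was 1 gene, Fgl2, with 6.97 and 55.7 in the QKO against 48.9, 111 and 120.2 (log2 difference -2.04 ± 0.79, limma adjusted p = 0.904), a lower and not a higher value. No gene had all QKO libraries above all controls (10.2% of all genes tested did), and 2 had them all below, Tafa4 (10.5 and 17.6 against 31.8, 48.4 and 41.5) and Rgs4 (139 and 129.99 against 196, 253 and 252), where 6.25% of all genes tested did. For Ddah1 the 95% interval of the log2 difference was -0.85 to 0.37, for Khdrbs2 -1.51 to 0.63, for Tafa4 -3.18 to 0.20 and for Rgs4 -3.07 to 1.52. Sh3gl2 (-0.35 to 1.53), Nxph1 (-2.08 to 1.46) and Opcml (-1.60 to 2.46) had intervals on both sides of 0.

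In high CHIR, with the same control libraries as the dose comparison above, the QKO raised 1 of the 8 genes tested, Ddah1, where 2.05% of all genes tested were called higher. Ddah1 read 449, 392 and 463 in the QKO and 174, 92.0 and 155 in the controls (3.10-fold, log2 difference 1.67 ± 0.25, limma adjusted p = 0.00392), without overlap. Rgs4 read 176, 131 and 82.9 against 31.3, 16.2 and 0 (8.22-fold, log2 difference 3.93 ± 0.94), also without overlap, and just missed the threshold (limma adjusted p = 0.0512). It passed with the replicate number as a block (limma adjusted p = 0.0127), which called 2 of the 8 genes and 5.3% of all genes. It also passed without control replicate 1 (difference 4.92, limma adjusted p = 0.0165) and without control replicate 3, which was at 0 (2.41, adjusted p = 0.00531). Either of these left-out libraries took the count from 1 to 2. Frmpd4, below the filter, was separated too, at 5.22, 5.19 and 7.71 against 2.47, 2.02 and 1.06 (difference without a filter 1.32 ± 0.46, limma adjusted p = 0.239). Separation in this direction held for 11.1% of all genes tested.

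The other 6 genes overlapped their controls in the QKO at high CHIR. Tafa4, at 611 or more in every library without β-catenin in high CHIR (a table scaled separately), read 1.74, 1.04 and 3.86 in the QKO and 4.94, 0 and 0 in its controls (limma adjusted p = 0.68). Fgl2 read 1.74, 1.04 and 2.89 and 4.94, 2.02 and 1.06 (limma adjusted p = 0.905), and Nxph1 1.74, 4.15 and 2.89 and 0, 4.05 and 1.06 (limma adjusted p = 0.661). These 3 were at a few reads per library in both groups. Khdrbs2, Sh3gl2 and Opcml had 95% intervals of the log2 difference of -1.25 to 0.66, -0.60 to 1.08 and -1.64 to 1.99. The summed endothelial markers (7 of 7 in the table) were 60.8 to 97.6 in the QKO and 145 to 239.7 in the controls, the ureteric markers (8 of 8) 226 to 431 and 479.5 to 1049.7, and the nephron epithelial markers (6 of 8, Umod and Hnf4a at 0 or absent) 185 to 245 and 283 to 496, all 3 lower in the QKO without overlap. The stromal markers overlapped (2577 to 9836 and 1847 to 4819, 1 of 8 tested called higher). Their part in the rise of Ddah1 was not tested.

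The QKO effect was set against itself between the doses. None of the 8 genes passed (limma, with edgeR also 0), where 0.107% of all genes tested were called higher. Under an unadjusted p of 0.05 there were 2, and the share of all genes at that level was not counted. Ddah1 had a difference of effect of 1.91 ± 0.37 (95% interval 1.1 to 2.72, limma adjusted p = 0.112), which passed with the replicate number as a block (2.01 ± 0.34, limma adjusted p = 0.0246, with 0.617% of all genes) and with DESeq2 on recovered reads. Rgs4 had 4.71 ± 1.41 (interval 1.63 to 7.79, limma adjusted p = 0.442), which passed without high CHIR control replicate 3 (3.19, limma adjusted p = 0.0306). In the QKO in high CHIR both genes stayed below every low CHIR control library, with Ddah1 at 0.683 and Rgs4 at 0.558 of the mean of the GFP sgRNA cells in low CHIR. Against the QKO in low CHIR (412 and 699.8 for Ddah1, 139 and 129.99 for Rgs4), the QKO libraries in high CHIR overlapped for both genes.

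**Figure D3:**
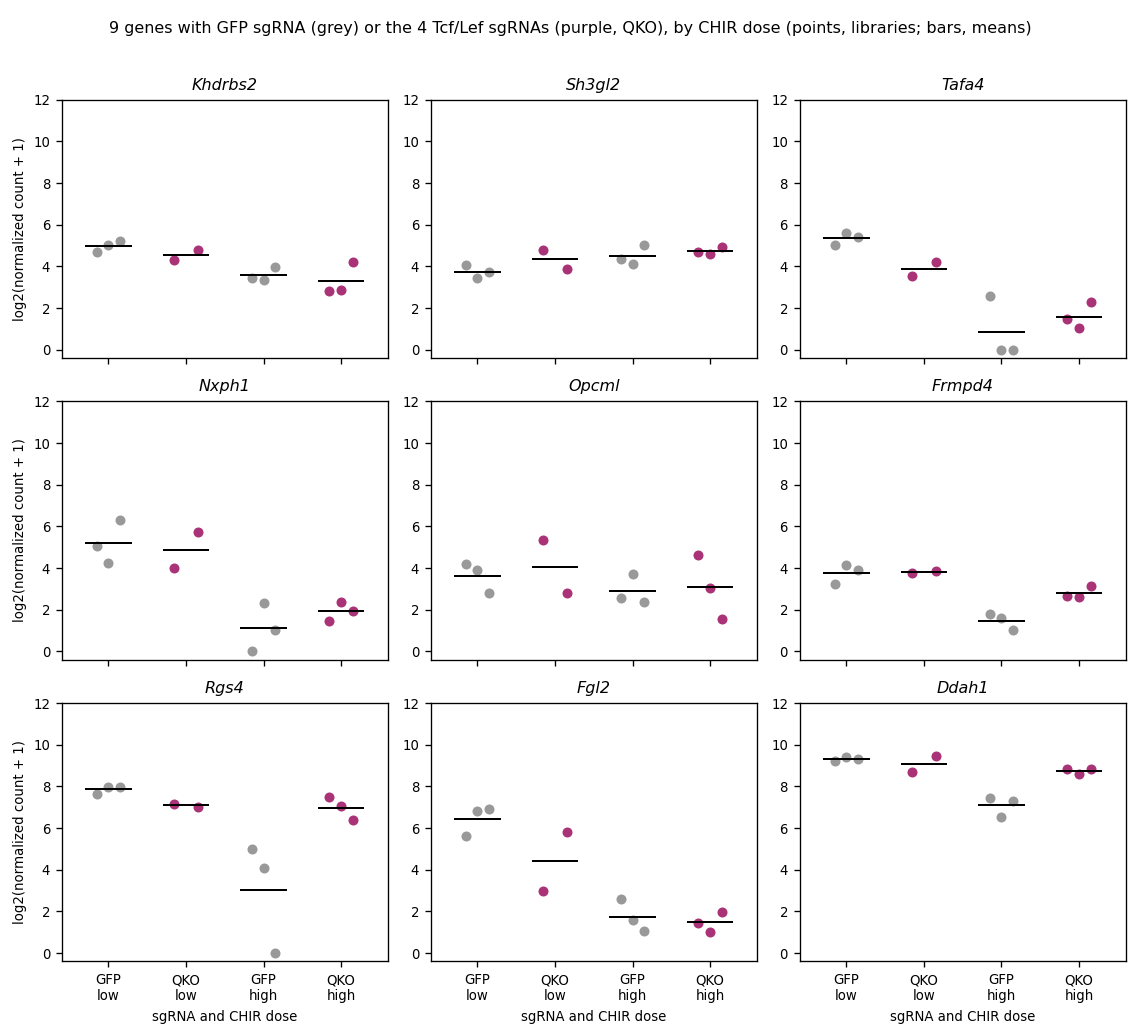
Level of each gene with the GFP sgRNA (grey) or in the QKO (purple) in low (1.25 µM) and high (5 µM) CHIR on the x axis; the y axis is log2(normalized count + 1), points are libraries (3 in each group, 2 for the QKO in low CHIR) and bars are means. Ddah1, Rgs4 and, at low counts, Frmpd4 are separated from their controls in high CHIR; the other 6 genes overlap.

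**Figure D4:**
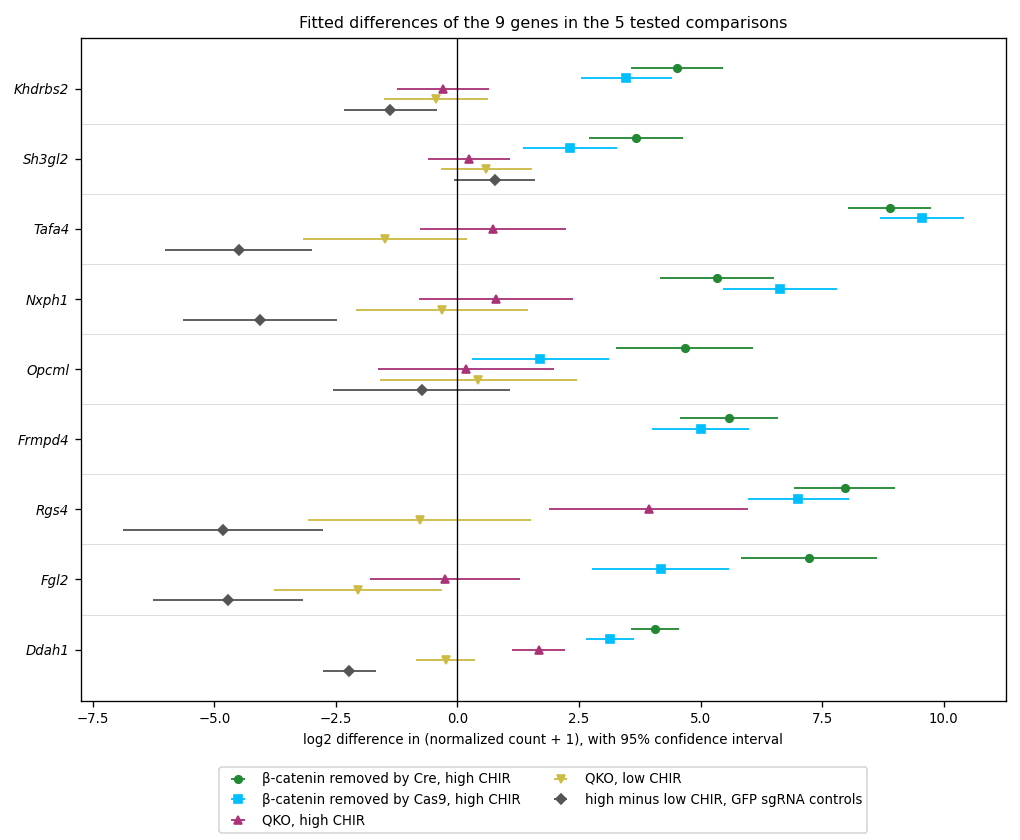
Fitted log2 difference (x axis, on the log2(normalized count + 1) scale) of each gene (y axis) with its 95% confidence interval from limma, for β-catenin removal by Cre and by Cas9 in high CHIR, the QKO in high and in low CHIR, and high minus low CHIR in the GFP sgRNA controls; Frmpd4 has no QKO fit because it fell below the filter. The removal differences lie between 1.71 and 9.55, and of the QKO differences those of Ddah1 and Rgs4 in high CHIR have intervals above 0, and that of Fgl2 in low CHIR lies below 0.

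Most close relatives of the 9 genes did not pass the test in any of these comparisons, and those that did were Rgs, IgLON, Tafa and Khdrbs genes. Of 38 paralogs listed, 24 were tested in the β-catenin table and 23 in the QKO table. With Cre in high CHIR 4 were higher and 1 lower (5.9% and 2.75% of all genes tested), and with Cas9 4 higher and 0 lower (3.44% and 1.64%). In the QKO in high CHIR 3 were higher (2.05% of all), and in high against low CHIR controls 2 higher and 6 lower (6.98% and 7.96%). Whether the relatives differ from all genes was not tested. The medians of their log2 differences were 0.17, 0.15, 0.22 and -0.16, where those of all genes tested were -0.02, 0.00, 0.00 and 0.00. Among Rgs genes, Rgs2 rose with Cre (5.57 ± 0.38, limma adjusted p = 1.25e-06) and Cas9 (3.17 ± 0.38, 0.00027), and Rgs3 with Cre (1.95 ± 0.24, 0.000199), Cas9 (1.97 ± 0.24, 0.000348) and in the QKO in high CHIR (1.30 ± 0.16, 0.00181). Both were lower in high than in low CHIR in the controls (-4.83 ± 0.41 and -1.65 ± 0.16). Among the IgLON relatives of Opcml, Negr1 rose with Cre (3.18 ± 0.27, 8.49e-06), Cas9 (2.63 ± 0.27, 7.83e-05) and in the QKO (2.04 ± 0.29, 0.00337). Ntm rose in the QKO (2.79 ± 0.40, 0.00311) but gave 1.12 ± 0.48 with Cre (0.2). Both fell in high CHIR (-3.06 ± 0.29 and -2.15 ± 0.40). Among the Tafa genes, Tafa1 went the way of Tafa4 (3.35 ± 0.46 with Cre, 2.51 ± 0.46 with Cas9, -4.00 ± 0.42 in high against low CHIR), Tafa2 fell in high CHIR (-1.80 ± 0.32), and Tafa5 did the opposite (-2.17 ± 0.54 with Cre, 2.06 ± 0.46 in high against low CHIR). Khdrbs3 was higher in high CHIR (1.28 ± 0.21). No tested relative of Sh3gl2, Nxph1, Frmpd4, Fgl2 or Ddah1 passed in these comparisons.

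Genes around the known partners of the 9 were counted in the same way, from lists chosen with earlier results of these data known. Of all genes tested in high CHIR, 5.9% were called higher and 2.75% lower with Cre, 3.44% and 1.64% with Cas9 and 2.05% and 0.491% in the QKO, with median log2 differences of -0.02, 0.00 and 0.00. Of 20 neurexin-linked and related adhesion genes tested, 8 rose with Cre, 4 with Cas9 and 1 (Clstn2) in the QKO in high CHIR, the last a share near that of all genes, and none fell (median log2 differences 0.90, 0.60 and -0.04). Cask, which binds the neurexin tail, rose with Cre (1.84 ± 0.19, limma adjusted p = 4.37e-05), and Flrt3 with Cas9 (2.22 ± 0.21, 4.03e-05). Of 17 genes of endocytosis around endophilin, 4 rose with Cre, 3 with Cas9 and 1 (Amph) in the QKO in high CHIR, with Snap91 (2.54 ± 0.21 with Cre, 6.43e-06) and Synj2 (1.75 ± 0.29, 0.00159) first. Of 10 postsynaptic scaffold genes, Dlgap1 rose and Dlg1 fell with each method (Dlgap1 2.72 ± 0.41 and 2.79 ± 0.41). Homer2 of that list was higher in high CHIR (1.70 ± 0.41, limma adjusted p = 0.0145). Of 7 genes around dimethylarginine and nitric oxide, none changed with either method, and in the controls Arg2 rose in high CHIR (3.52 ± 0.89, 0.0187) and Nos3 gave -1.04 ± 0.40 (0.108). Clstn2, Amph and Dlg1 were named after their values were seen.

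Of 7 NPC self-renewal genes tested, 6 rose with Cre (5.9% of all genes tested), 5 with Cas9 (3.44%) and 6 in the QKO in high CHIR (2.05%). All 7 fell in high against low CHIR (7.96% of all). Of all genes tested, 2.75% were called lower with Cre and 1.64% with Cas9. Meox2 gave 5.11 ± 0.26 with Cre, 4.44 ± 0.26 with Cas9 and 2.56 ± 0.30 in the QKO (limma adjusted p = 1.3e-07, 8.3e-07 and 0.00126), and Cited1 gave 5.49 ± 0.44, 5.12 ± 0.44 and 1.73 ± 0.26 (5.28e-06, 1.84e-05 and 0.0039). In the QKO in high CHIR 6 of 7 self-renewal genes and 1 of the 8 genes followed here passed, and the difference between the lists was not tested. Differentiation genes went the other way, with 4 of 4 lower with both methods (Wnt4 -3.20 ± 0.44 and Lhx1 -2.94 ± 0.44 with Cre) and 0 of 5 past the threshold in the QKO. Of 16 Wnt feedback and target genes, 8 fell and 2 rose with Cre, and 5 fell and 1 rose with Cas9. Znrf3, a Wnt receptor ubiquitin ligase, fell with Cre (-1.44 ± 0.16), and Ccnd1 gave 0.07 ± 0.25 there and rose in high CHIR (3.93 ± 0.32). Tcf7l1, of the 4 factors the one best known as a repressor, rose with Cre (1.81 ± 0.24, limma adjusted p = 0.000271) and Cas9 (1.53 ± 0.24, 0.00198) in high CHIR, whereas Lef1 fell (-3.34 ± 0.45 and -2.62 ± 0.45).

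The 5 genes whose group means were most like the average profile of the 8 genes that averaged 10 or more normalized counts in every table were Chd3 (Pearson r = 0.979), Bcl2l11 (0.970), Dusp27 (0.968), Anxa6 (0.967) and Lima1 (0.963), out of 14944 ranked. The r is over the 15 group means, each centred on its table, is given as a description, and rests on points that share libraries, dose and size factors. The ranking used the same groups as the values that follow, so these are descriptions without a test. Chd3, a chromatin remodeler, went from 706 ± 68.2 to 390.4 ± 63.8 and 233 ± 43.6 over the wild-type doses (mean ± SD, n = 3), and was 4.21-fold higher with Cre in high CHIR. Bcl2l11, which encodes the pro-apoptotic protein Bim, was 5.24-fold higher there. In the QKO in high CHIR the log2 differences of these 2 were 0.37 ± 0.30 and 0.10 ± 0.16. Each of the 8 genes was set against the average of the other 7: Khdrbs2 (0.955), Tafa4 (0.951) and Ddah1 (0.940) lay closest to it and Sh3gl2 farthest (0.548).

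One feature that the choice did not use was the size of the genes, and it was looked at after their values were seen. In GENCODE vM21 (GRCm38), Opcml spans 1135 kb (chr9:27790775-28925410, plus strand), Frmpd4 1106 kb (chrX:167471309-168577231, minus strand), Khdrbs2 486 kb (chr1:32172714-32658568, plus strand), Sh3gl2 434 kb (chr4:85205126-85639195, plus strand), Nxph1 301 kb (chr6:8948431-9249032, plus strand), and Tafa4 229 kb (chr6:96831203-97060413, minus strand). That is 6 of 9 genes of at least 200000 bases, a length reached by 5.35% of the 12812 protein-coding genes tested in the β-catenin table. Ddah1 spans 136 kb (chr3:145758675-145894277, plus strand), while Rgs4 (6.17 kb, chr1:169741477-169747642, minus strand) and Fgl2 (5.73 kb, chr5:21372642-21378374, plus strand) are short. With all 9 genes left out, 680 coding genes of at least that length and 12123 shorter ones were tested there. After β-catenin removal in high CHIR the long genes were called higher in 18.5% of cases with Cre and 9.56% with Cas9, and lower in 4.71% and 2.65%. The shorter genes were called higher in 6.71% and 3.97% and lower in 3.27% and 1.84%, so the long genes were called more often in both directions. From low to high CHIR in the controls of the QKO experiment they were called higher in 11.5% and lower in 19.4% of cases, and the shorter ones in 7.35% and 8.58%. The shares are descriptions. Whether gene length has a part in the result was not tested.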

How the data were processed

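Bulk RNA-seq was measured in 36 libraries of mouse NPCs. Per the study's methods, reads were aligned by the authors with STAR to combined mouse and human Ensembl assemblies (GRCm38 and GRCh38), unique reads per gene were counted with featureCounts, and counts were divided by DESeq2 size factors. The deposited values are these normalized counts, a signal per gene and library with no depth of its own, in 3 tables scaled separately: wild type (9 libraries), β-catenin removal (16) and QKO (11). Whole reads were recovered from the steps between low values: 100.0% of values were whole within 0.1 of a read. That gave depths of 13089780 to 76071568 reads on genes. The deposited comparison tables hold the authors' fold changes and p-values and were not used, nor were 50 columns of per-library values in them.

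The members and lists were chosen with earlier results of these data known. limma 3.58.1 (R 4.3.3) was fitted with a trend to log2(normalized count + 1) over all libraries of a table, for genes with a mean of at least 10 (17411 genes in the wild-type, 16780 in the β-catenin and 15878 in the QKO table), with Benjamini-Hochberg adjustment over all of them. A call needed an adjusted p under 0.05 and a log2 difference of at least 0.5, and fold changes on this scale understate the change of low genes. Ratios between groups are of mean normalized counts. Where a group had 0 reads, the ratio is a lower bound against 3 reads per library, and where it had 1 to 3 reads, an exact 95% counting interval is given. Alternatives included edgeR 4.0.16 and DESeq2 1.42.0 on recovered reads, other pseudocounts, no filter, TMM factors and leaving out each library. The fit was tested on simulated data. Named genes are the 9 members, relatives past the adjusted p, the 2 genes of each other list with the smallest adjusted p, the targeted genes, and the 5 genes most like the members. In the QKO table same-numbered libraries deviated together (correlations of 0.249 to 0.630 over the 8 pairs), so the numbers may pair libraries. The main limma fit had no term for this pairing, and only the replicate block, an alternative, used it. Counts of calls in the QKO table are therefore unpaired unless the block is named. Rgs4 in the QKO in high CHIR, Khdrbs2 between the doses and the Ddah1 difference of effect were called only once pairing was modelled or under other alternatives. Nothing in the labels says that replicates came from separate litters or cultures, so p-values measure the spread between these libraries, which may be technical. Gene positions are from GENCODE vM21 (GRCm38), promoters from RefSeq (GRCm38.p6), and guide sequences from the study's tables, located by exact match to the transcripts.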

Additional observations from a re-analysis of the deposited data

How the results depend on the processing

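The 9 of 9 genes called higher with Cre in high CHIR were also 9 under the alternatives that kept both libraries with Cre. These were pseudocounts of 0.5 and 5, no filter on low values, TMM factors, the replicate block and only the groups compared. The remaining alternatives, edgeR and DESeq2, held 1 library with Cre in high CHIR. The count for Cas9 in high CHIR was 8 under all of these but the replicate block, which gave 9, and 7 to 8 with 1 library left out. In the β-catenin table a block rests on 2 pairs that share only a number (correlations of deviations 0.463 with Cre and 0.297 with Cas9). The count for high against low CHIR was 5 to 6 under every alternative, and that for the QKO in low CHIR and for Cre against Cas9 was 0 under every one. For the QKO in high CHIR the count of 1 became 2, Rgs4 being added, under a pseudocount of 5, no filter, TMM factors and the replicate block (1 to 2 with 1 library left out). For the difference of the QKO effect between doses the count of 0 became 1 under the replicate block and under DESeq2 (0 to 1 with 1 library left out). The replicate block changed no other call in the QKO table beside that of Khdrbs2 given above. The causes were not tested.

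Some differences that had missed the threshold changed sign. Under edgeR and DESeq2 these were Tafa4 in the QKO in high CHIR (-0.25 and -0.26), Opcml in the QKO difference (0.40 and 0.38), and Nxph1 (1.72 and 1.11) and Frmpd4 (-0.050 and -0.13) in Cre against Cas9. With 1 library left out, the QKO differences in low CHIR ran over -1.18 to 0.56 for Nxph1, -0.85 to 1.71 for Opcml and -0.62 to 0.14 for Ddah1, those in high CHIR over -0.59 to 0.94 for Opcml and -0.60 to 0.16 for Fgl2, the differences between doses over -0.31 to 0.38 for Khdrbs2, -0.81 to 0.11 for Sh3gl2 and -1.53 to 1.03 for Opcml, and the change of Opcml with CHIR in the GFP sgRNA cells of the β-catenin table, which had no test, over -2.12 to 0.20. An arm left with 1 library was assumed to vary like the others. Fits of only the groups compared were not run for the QKO difference between doses, which needs all 4 groups.

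Counts of all genes called moved by over 1.5 times as follows, given as higher and lower. With Cre in high CHIR, 990 and 462 became 430 and 194 with only the groups compared, 241 lower with edgeR, and 620 to 689 and 196 to 295 with 1 library left out. With Cas9 in high CHIR, 578 and 276 became 918 and 524 under the block, 935 and 793 with only the groups compared, 537 lower with DESeq2, and 176 to 355 and 28 to 84 with 1 library left out. For the QKO in high CHIR, 326 and 78 became 841 and 340 under the block, 127 and 29 with edgeR, 138 lower with DESeq2, and 131 to 347 and 24 to 133 with 1 library left out. For the QKO in low CHIR, 1 and 0 became 15 and 1 under the block, 22 and 2 with DESeq2, 4 higher with no filter, 0 with only the groups compared, and 0 to 4 higher with 1 library left out. For the difference of the QKO effect, 17 and 3 became 98 and 38 under the block, 80 and 33 with DESeq2, 9 higher with edgeR, and 3 to 41 and 0 to 9 with 1 library left out. For Cre against Cas9, 0 and 0 became 11 and 1 under the block and 4 and 4 with DESeq2. For high against low CHIR in the controls, leaving out 1 library gave 754 to 1454 and 791 to 1658, against 1108 and 1264.

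Small groups and low counts limit these values: 2 libraries a group in the β-catenin table, 2 QKO libraries in low CHIR, and a few reads per library for Tafa4, Nxph1, Fgl2 and Frmpd4 in intact cells in high CHIR, where a fitted log2 difference depends on the pseudocount. edgeR and DESeq2 ran on recovered reads without 3 libraries whose size factors made 1 read worth about 1 normalized count, so their groups were smaller there. In the β-catenin table these were replicate 1 with Cre in high CHIR and replicate 1 with the GFP sgRNA in low CHIR, which left 1 library in each group. In the QKO table it was GFP sgRNA replicate 2 in high CHIR.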
